A study of Mus musculus with 8 samples.

Results

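The responses of cells carrying a STING protein with a C-terminal tail were pooled and set against those of cells without such a tail. The comparison put 4 libraries (mSTING and zfCTT, numbers 1 and 2 of each) against 4 others (no_transgene and dCTT, numbers 1 and 2 of each), which together are the 8 libraries of the series. A gene was tested when it reached 1 RPKM (the authors' read number per gene, corrected for gene length and library size) in at least 4 of the 8 libraries, which kept 12584 of the 53715 genes in the table. Of these, 12016 reached 1 RPKM in all 4 libraries of at least one side.

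All cells were mouse macrophages labelled Sting-/-, and all had been treated with 500 µg/ml CMA (a compound known to bind and activate mouse STING; its full name is 10-carboxymethyl-9-acridanone) for 4 h. The no_transgene cells are titled MSCV2.2 and labelled as carrying no transgene. The dCTT cells expressed mouse STING from which the C-terminal tail was missing, mSTING cells expressed the intact mouse protein, and zfCTT cells expressed mouse STING with the tail of the zebrafish protein. The series holds no library without CMA, so the values compare stimulated cells with stimulated cells. The labels do not say whether a line was 1 clone, how the macrophages were made, or whether numbers 1 and 2 were separate cultures. The p-values below therefore measure only how these libraries scatter, possibly for technical reasons, and the 4 libraries of a side come from only 2 transgene labels.

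STING is a membrane protein that binds cyclic dinucleotides made in response to cytosolic DNA. Its short C-terminal tail recruits the kinase TBK1, which phosphorylates the transcription factor IRF3 and so starts type I interferon transcription; secreted interferon then acts through a complex that contains STAT2 and IRF9 on genes that carry an interferon-stimulated response element. STING also activates NF-κB, and the zebrafish tail is known for an added segment that engages TRAF6 and strengthens that branch.

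Tmem173, the gene for STING, was checked first. Its level was 3.23 and 2.42 RPKM in no_transgene 1 and 2, 22.7 and 15.0 in dCTT, 10.6 and 22.2 in mSTING and 14.2 and 20.6 in zfCTT. The no_transgene libraries were the lowest and dCTT 1 was the highest of the 8, so the sides overlapped (difference 1.0 ± 0.62 on the log2(RPKM + 1) scale, SE, limma adjusted p = 0.608). With the no_transgene libraries left out the difference was -0.17. Reads that remain in no_transgene do not say whether they come from a part of the gene left by the knockout.

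Depth, recovered from the steps between RPKM values, was 20.1 to 88.2 M reads with a tail and 27.7 to 171 M without (means 57.8 and 89 M, two-sided exact permutation p = 0.429). On the first principal component of the tested genes, which held 38.3% of the variance, no_transgene 1, dCTT 1 and zfCTT 1 stood apart at 15.7 to 41.5 and the other 5 libraries lay between -27.0 and -4.0. The second component, with 36.2%, placed the 4 libraries without a tail at -37.7 to -12 and the 4 with one at -0.99 to 44.9, with mSTING 2 nearest to the other side. Of 12 macrophage markers, 11 had a mean of at least 1 RPKM, and their summed level was 1063 to 1296 RPKM without a tail and 838 to 1054 with one. Of 62 markers of 10 other cell types, 1 had a mean of at least 1 RPKM, the kinase gene Lck; the summed level of its T-cell list was 0.50 to 1.03 without a tail and 1.33 to 2.08 with one, while Cd3e and Cd8a were listed at 0 in all libraries. The part of these markers in the results was not tested. In bulk RNA, fewer cells of a type and less RNA per cell cannot be told apart.

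Promoter sequence is shown for the 4 rises whose promoter window held the interferon element letters and for Nfkbia, an NF-κB target that did not pass the test, because the type I interferon and NF-κB branches act through short DNA elements. The sequences are the 250 bases before the RefSeq transcription start in GRCm38.p6, read along the gene's own strand from 5′ to 3′. Capitals mark the matches found by script. For the first 4 genes the capitals mark GAAA, 2 bases of any kind and GAAA again, the letters used here for the interferon-stimulated response element, searched on both strands, with overlapping matches joined. For Nfkbia, which encodes the NF-κB inhibitor IκBα, they mark the NF-κB letters, GGGA, any 1 base and TTTCC, found there on the opposite strand. Cxcl10 lies at chr5:92348890-92349139 (minus strand, match starting 213 bases before the start), Isg15 at chr4:156200819-156201068 (minus strand, 3 overlapping matches from 78 bases before it), Oas1g at chr5:120887614-120887863 (minus strand, 2 overlapping matches from 18 bases before it), Oas3 at chr5:120777660-120777909 (minus strand, 1 match 75 bases before it) and Nfkbia at chr12:55492648-55492897 (minus strand, 1 match 29 bases before it).
Cxcl10: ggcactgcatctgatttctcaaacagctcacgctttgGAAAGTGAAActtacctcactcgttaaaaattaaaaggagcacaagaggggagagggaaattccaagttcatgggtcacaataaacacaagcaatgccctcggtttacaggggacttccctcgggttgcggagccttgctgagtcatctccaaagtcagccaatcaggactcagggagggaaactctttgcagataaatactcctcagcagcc
Isg15: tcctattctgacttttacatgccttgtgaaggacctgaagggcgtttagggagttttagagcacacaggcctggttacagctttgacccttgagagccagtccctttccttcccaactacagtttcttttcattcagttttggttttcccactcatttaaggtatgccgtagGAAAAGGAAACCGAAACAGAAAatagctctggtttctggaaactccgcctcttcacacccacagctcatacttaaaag
Oas1g: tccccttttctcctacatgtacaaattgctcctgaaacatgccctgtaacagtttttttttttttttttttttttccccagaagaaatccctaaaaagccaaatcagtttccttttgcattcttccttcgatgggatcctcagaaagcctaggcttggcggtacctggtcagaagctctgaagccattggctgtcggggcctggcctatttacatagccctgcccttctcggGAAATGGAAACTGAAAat
Oas3: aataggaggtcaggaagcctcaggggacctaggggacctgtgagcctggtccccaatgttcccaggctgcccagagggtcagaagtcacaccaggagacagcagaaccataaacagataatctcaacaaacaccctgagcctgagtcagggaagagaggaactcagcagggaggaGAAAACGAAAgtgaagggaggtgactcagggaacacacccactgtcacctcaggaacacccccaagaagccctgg
Nfkbia: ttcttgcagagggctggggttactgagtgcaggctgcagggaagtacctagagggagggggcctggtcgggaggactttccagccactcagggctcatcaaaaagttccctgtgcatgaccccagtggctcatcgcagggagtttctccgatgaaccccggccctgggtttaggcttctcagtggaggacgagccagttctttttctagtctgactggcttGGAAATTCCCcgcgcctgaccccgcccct

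With a tail, 21 of the 12584 genes rose (0.167%) and 4 fell (0.0318%) at a Benjamini-Hochberg adjusted p under 0.05 in limma, 25 in all (0.199%). In each of the 25 the 4 libraries with a tail did not overlap the 4 without. Over all genes tested, 538 (4.28%) had all 4 libraries with a tail above the other 4 and 455 (3.62%) had all 4 below, so complete separation alone was common in both directions. A gene that passed the filter by reaching 1 RPKM in all libraries of one side and in none of the other was separated by construction. Without these, 12507 genes remained, of which 490 (3.92%) had all libraries with a tail above the rest and 426 (3.41%) below. Among the 12507 were 12 of the 21 rises and, of the 4 falls, only Nid2. At an unadjusted limma p under 0.05, 651 genes (5.17%) were higher and 666 (5.29%) lower. The median difference over all tested genes was -0.04 on the log2 scale. The number of calls depended on single libraries: leaving out mSTING 2 gave 232 rises and 70 falls, and leaving out any other library gave 2 to 14 rises and 1 to 4 falls. Without no_transgene 1, no_transgene 2 or dCTT 2 it was 2 rises each, without dCTT 1 it was 3, without mSTING 1 it was 4, without zfCTT 2 it was 6 and without zfCTT 1 it was 14. Irf9, Rtp4 and Rxra passed the threshold in all 8 of these fits, and each of the other 22 called genes passed in 1 to 5 of them. Rtp4 entered the test only through the libraries with a tail and Rxra only through those without, whereas Irf9 did not depend on 1 side.

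**Figure D1:**
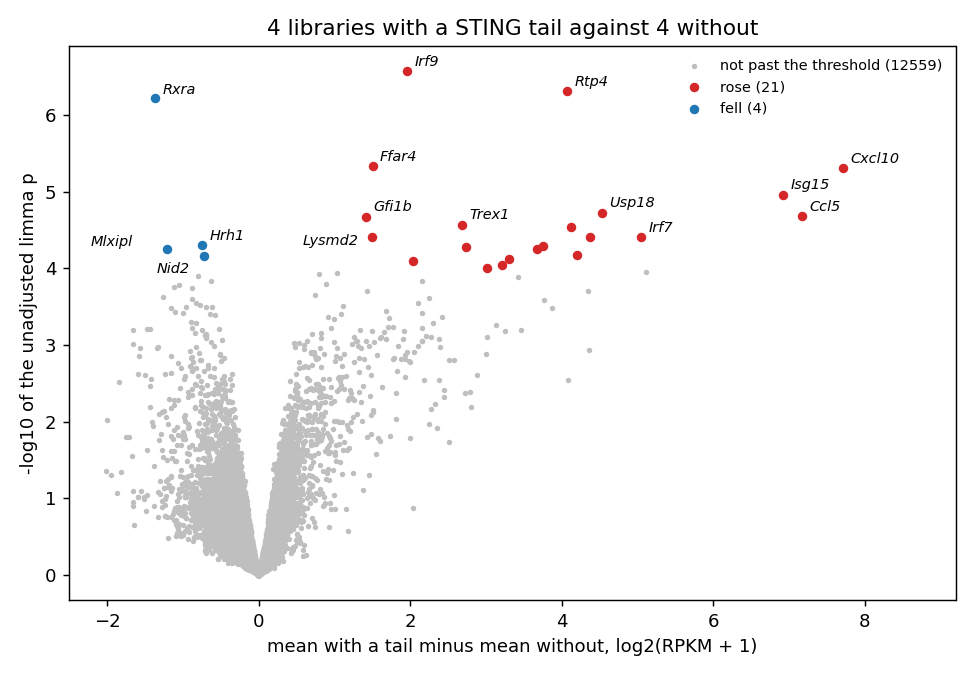
Each point is 1 of the 12584 genes tested, with the mean log2(RPKM + 1) of the 4 libraries with a tail minus that of the 4 without on the x axis and -log10 of the unadjusted limma p on the y axis. The 21 red points (rose) reach 7.72 with Cxcl10, whereas the 4 blue points (fell) reach only -1.37 with Rxra; Irf9, Rtp4 and Rxra have the smallest p.

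Of the transcription factor genes of the interferon response, Irf9 was among the clearest rises, and Irf7 also passed the threshold. Irf9 (ENSMUSG00000002325, chr14:55603571-55610030, GRCm38), the DNA-binding part of the complex that interferon activates, was at 0.971 and 0.983 RPKM in no_transgene, 1.16 and 0.963 in dCTT, 8.12 and 5.13 in mSTING and 6.99 and 7.54 in zfCTT. The 4 libraries without a tail lay together and the 4 with one were all several times higher, with mSTING on either side of zfCTT. The difference was 1.96 ± 0.14 (SE, adjusted p = 0.00252). Irf7, the factor that amplifies interferon transcription, was at 0.0999 to 0.181 RPKM in the 4 libraries without a tail, at 60.5 and 6.61 in mSTING and at 81.0 and 51.3 in zfCTT; it rose by 5.05 ± 0.66 (adjusted p = 0.0356), and mSTING 2 was far below the other 3. Usp18, a protease that removes ISG15 and dampens interferon receptor signalling, rose by 4.54 ± 0.54 (adjusted p = 0.0298). Irf9 shares exonic bases with Rnf31, Irf7 with Phrf1 and Usp18 with Gm44148, and without a known strand setting their reads cannot be told apart.

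Over the list of interferon signalling genes, 3 of the 22 tested members rose (Irf9, Usp18 and Irf7) and none fell (2 were lower and 9 higher at an unadjusted limma p under 0.05). The median difference was 0.35. The 4 members Usp18, Irf7, Socs1 and Stat2 entered the test only through the libraries with a tail and so were separated by the filter. Of the other 18, 4 had all libraries with a tail above the rest (22.2%, against 3.92% of all genes on the same basis), and their median was 0.21. The receptor genes Ifnar1 (-0.29) and Ifnar2 (-0.34, adjusted p = 0.393) and the kinase genes Jak1 (0.16) and Tyk2 (0.20) did not pass. Interferon genes themselves were mostly silent. Of 19 listed, 10 were listed at 0 in all 8 libraries and none could be tested. Ifnb1, encoding interferon-β (chr4:88522025-88522774), was the only one to reach 1 RPKM in any library: it had 0 reads in all 4 libraries without a tail, 4 and 6 reads in mSTING and 281 and 135 reads in zfCTT. The mean with a tail was at least 86.1-fold higher than the level of 3 reads per library without one, which was 0.0697 RPKM. That bound rested on zfCTT: the group mean was 0.0756 RPKM in mSTING, near the 3-read level, and 11.9 in zfCTT. When any 1 library of either side was left out, the mean with a tail was at least 25.4-fold to 134-fold higher, with a zfCTT library always kept.

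The largest differences of the pooled comparison were those of 2 chemokine genes, Cxcl10 and Ccl5. Cxcl10 (ENSMUSG00000034855, chr5:92346638-92348889), a ligand of the T-cell receptor CXCR3, was at 0.657 and 0.614 RPKM in no_transgene, 0.909 and 1.19 in dCTT, 335 and 68.9 in mSTING and 1275 and 734 in zfCTT. The lowest library with a tail, mSTING 2, was far above the highest without one, and both zfCTT libraries were above both of mSTING. It rose by 7.72 ± 0.77 (adjusted p = 0.0123). Ccl5 (ENSMUSG00000035042, chr11:83525778-83530518), a chemokine that attracts T cells and monocytes, was at 0.0376 to 0.0926 RPKM in the 4 libraries without a tail, at 69.3 and 33.7 in mSTING and at 840 and 279 in zfCTT, and rose by 7.18 ± 0.86 (adjusted p = 0.0298). Ccl2, Ccl3 and Ccl4, which attract monocytes and other leukocytes, had differences of 2.72, 2.28 and 4.09 with all 4 libraries with a tail above the rest, but with adjusted p of 0.188, 0.225 and 0.162. Ccl6 pointed the other way: 1.79 to 2.75 RPKM without a tail and 0.250 to 0.897 with one (-0.96, adjusted p = 0.0805). Over the 9 chemokine genes tested, 2 rose (against 0.167% of all genes) and none fell in limma (1 was lower and 6 higher at an unadjusted p under 0.05), and the median was 2.28. Ccl5 entered the test only through the libraries with a tail and Ccl6 only through those without. Cxcl10 shares exonic bases with Art3.

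Antiviral effectors were the list with the most calls, 9 of 45 tested members against 0.167% of all genes. The median difference was 1.90. Of the 45, 15 entered the test only through the libraries with a tail and were separated by the filter. Isg15, Rtp4, Usp18, Cmpk2, Oas3, Rsad2 and Ifit1 were among these 15. Of the other 30, 4 rose, 24 had all 4 libraries with a tail above the rest (80.0%, against 3.92% of all genes on the same basis), and the median was 1.56. Isg15 (ENSMUSG00000035692, chr4:156199424-156200818), a ubiquitin-like modifier, was at 0.477 and 0.810 RPKM in no_transgene, 0.499 and 0.509 in dCTT, 247 and 30.5 in mSTING and 582 and 292 in zfCTT, and rose by 6.93 ± 0.76 (adjusted p = 0.0229). Within the libraries with a tail it spanned a wide range, with mSTING 2 lowest. Rtp4 (ENSMUSG00000033355, chr16:23520291-23614222), a receptor-transporting protein that is also an interferon-stimulated gene, was far more even: 0.00821 to 0.0590 RPKM without a tail, 21.3 and 7.35 in mSTING and 21.8 and 20.3 in zfCTT. It rose by 4.08 ± 0.31 (adjusted p = 0.00252), and apart from mSTING 2 the libraries with a tail were nearly level.

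The other calls on that list were Usp18, Cmpk2, Ifi27l2a, Slfn2, Oas1g, Oas3 and Lgals3bp. Cmpk2, a mitochondrial nucleotide kinase, was listed at 0 in 3 of the libraries without a tail and at 0.00140 RPKM, a single read, in dCTT 2, against 17.8 and 3.70 in mSTING and 39.2 and 31.5 in zfCTT; it rose by 4.20 ± 0.59 (adjusted p = 0.0419). Oas1g and Oas3, whose proteins belong to the family that makes the 2′-5′ oligoadenylates activating RNase L, rose by 3.68 ± 0.50 and 3.30 ± 0.47 (adjusted p = 0.0376 and 0.0431). They are not silent without a tail: Oas1g was at 3.14 to 4.12 RPKM there and at 18.5 to 128 with a tail. Near-identical members of the Oas and Slfn families may exchange reads. Rsad2 (viperin) and Ifit1, which binds foreign 5′ RNA ends, had 0 reads in all 4 libraries without a tail. Rsad2 was at 14.5 and 3.46 RPKM in mSTING and 59.9 and 39.6 in zfCTT. With a tail its mean lay at least 2434-fold above the level of 3 reads per library. Dropping single libraries, from either side, put this lower bound between 1591-fold and 3780-fold. Ifit1 was at 13.7 and 2.17 RPKM in mSTING and 36.1 and 18.9 in zfCTT, at least 899-fold above that level (at least 589-fold to 1396-fold with any 1 library of either side left out). Neither passed the limma test over all genes (adjusted p = 0.0664 and 0.0762), and both were lowest in mSTING 2.

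**Figure D2:**
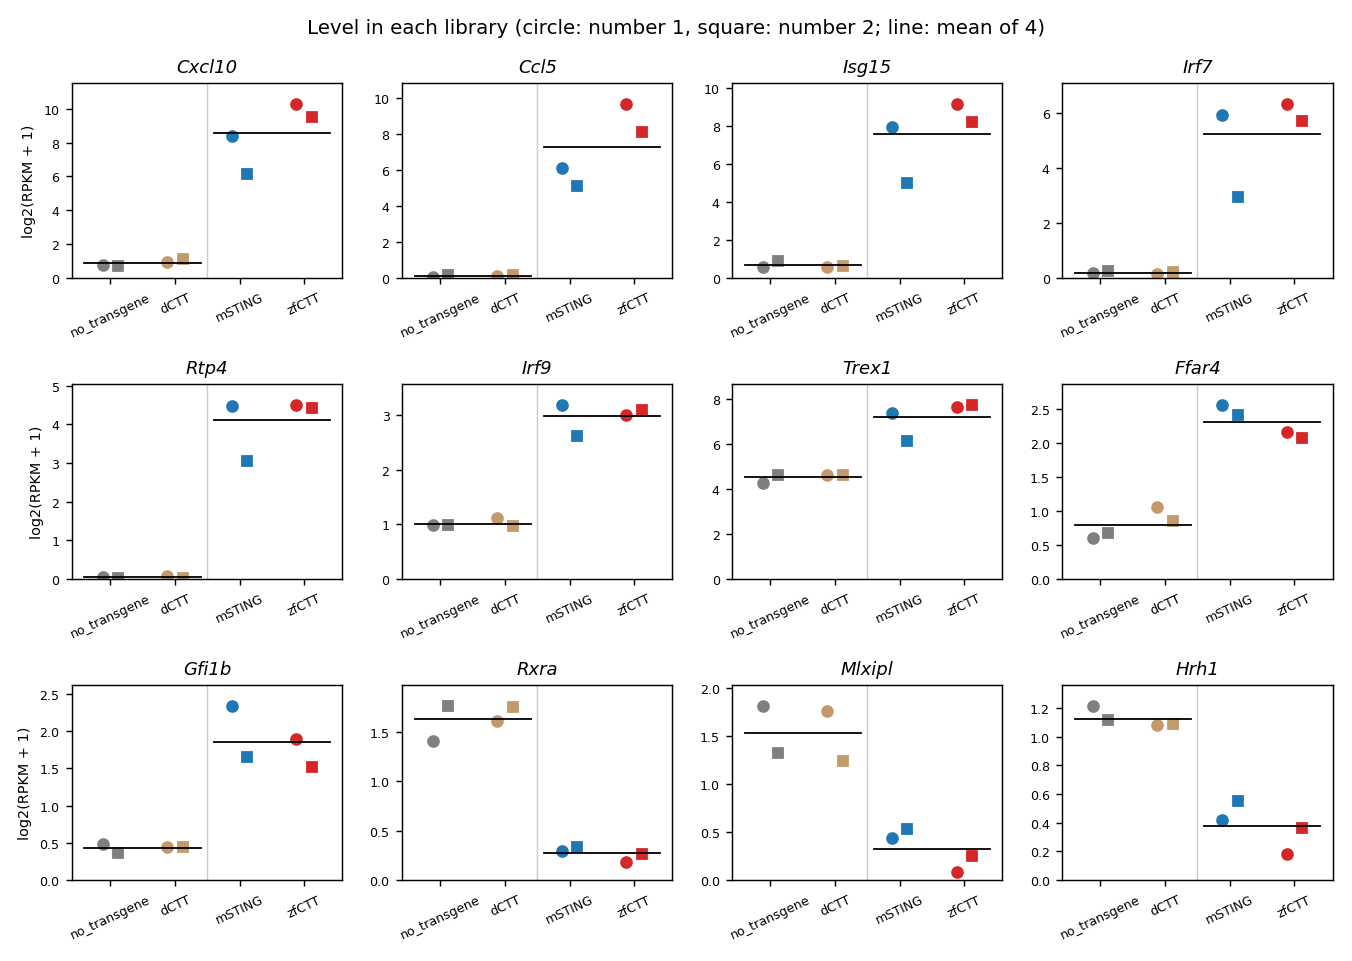
Level of 12 called genes in each library, as log2(RPKM + 1) on the y axis, by transgene on the x axis; circles are number 1, squares number 2 and lines the mean of the 4 libraries of a side. Libraries with and without a tail are apart in every panel, by the filter for Ccl5, Isg15, Irf7, Rtp4, Gfi1b, Rxra, Mlxipl and Hrh1. The lowest library with a tail is mSTING 2 for Cxcl10, Ccl5, Isg15, Irf7, Rtp4, Irf9 and Trex1 but not for Ffar4.

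Genes that sense or degrade nucleic acids gave 2 rises among 19 tested, against 0.167% of all genes; both were among the 17 that did not enter the test through the libraries with a tail alone. Trex1, the exonuclease that removes cytosolic DNA, was already expressed without a tail, at 18.4, 23.4, 23.5 and 23.5 RPKM, and was at 163 and 68.3 in mSTING and 198 and 214 in zfCTT. It rose by 2.69 ± 0.33 (adjusted p = 0.0331). Dhx58, the RNA sensor LGP2, rose by 3.01 ± 0.44 (adjusted p = 0.0496). Cgas, the enzyme that makes STING's ligand, had 3.55 to 5.32 RPKM without a tail and 5.06 to 9.89 with one, which overlapped (0.78, adjusted p = 0.182). Tbk1, the kinase that the tail recruits, was nearly level (0.07, adjusted p = 0.846), and Irf3 differed by -0.30 (adjusted p = 0.542). The list's median was 0.47. Trex1 shares exonic bases with Atrip and Dhx58 with Dhx58os.

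The other 6 of the 21 rises were on none of the gene lists. Ffar4 (chr19:38097071-38114263), a receptor for long-chain fatty acids, was at 0.518 and 0.589 RPKM in no_transgene, 1.07 and 0.808 in dCTT, 4.90 and 4.29 in mSTING and 3.47 and 3.20 in zfCTT. Here both mSTING libraries were above both of zfCTT, the reverse of the order seen for Cxcl10, and the rise was 1.5 ± 0.15 (adjusted p = 0.0123). Gfi1b, a transcriptional repressor of blood lineages, was at 0.281 to 0.394 RPKM without a tail, at 4.07 and 2.15 in mSTING and at 2.73 and 1.85 in zfCTT (1.42 ± 0.17, adjusted p = 0.0298). Sdc3, a cell-surface heparan sulphate proteoglycan, was at 2.82 to 3.21 RPKM without a tail and at 61.1, 11.6, 63.6 and 39.0 with one (3.22, adjusted p = 0.0478). Lysmd2 rose by 1.49, the non-coding Gm44148, which shares exonic bases with Usp18, by 4.38, and a gene known here only by its identifier, ENSMUSG00000105383, by 2.05. Gfi1b and Gm44148 entered the test only through the libraries with a tail and so were separated by the filter. Of these 6 only Sdc3 met the rule for named genes, and the others were named after their values were seen. Sdc3 shares exonic bases with Gm12970 and Gm26716.

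With a tail 4 genes fell. Of these, Rxra, Mlxipl and Hrh1 entered the test only through the libraries without a tail and so were separated by the filter. Rxra (ENSMUSG00000015846, chr2:27676440-27762957), the retinoid X receptor that pairs with many nuclear receptors, was at 1.65 and 2.40 RPKM in no_transgene, 2.07 and 2.37 in dCTT, 0.224 and 0.262 in mSTING and 0.137 and 0.200 in zfCTT. The 2 sides were far apart and the 4 libraries with a tail lay close together (-1.37 ± 0.11, adjusted p = 0.00252). Mlxipl, the carbohydrate-response factor ChREBP, was at 1.37 to 2.52 RPKM without a tail, 0.350 and 0.442 in mSTING and 0.0630 and 0.187 in zfCTT (-1.21 ± 0.17, adjusted p = 0.0376). Nid2, a basement-membrane protein, was at 2.26 to 2.47 RPKM without a tail and 0.783 to 1.28 with one (-0.72 ± 0.10, adjusted p = 0.0419). Hrh1, the histamine H1 receptor, was at 1.11 to 1.32 RPKM without a tail and 0.134 to 0.466 with one (adjusted p = 0.0376); its mean over the 8 libraries was under 1 RPKM, which left it outside the rule for named genes. These are low levels, and a minimum mean of 5 RPKM left all 4 genes untested, so it cannot show whether these falls hold. Among the 7742 genes kept at that minimum, limma called no fall and 21 rises (721 genes had an unadjusted p under 0.05). Of those 21 rises, 18 were among the rises reported above. Mlxipl shares exonic bases with Gm43500 and Nid2 with Rtraf.

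NF-κB genes had smaller differences, and none of the 29 tested regulators passed (0 against 0.167% of all genes in limma; 11 were higher at an unadjusted p under 0.05 and none lower). Nfkbia was at 46.7 and 53.4 RPKM in no_transgene, 58.9 and 64.9 in dCTT, 110 and 91.6 in mSTING and 209 and 176 in zfCTT. The sides did not overlap, and zfCTT was above mSTING (1.30 ± 0.26, adjusted p = 0.102). For 8 of the 29 all 4 libraries with a tail were above the rest and for none below, against 4.28% and 3.62% of all genes; Nfkbie (1.98), Bcl3 (1.42), Nfkb2 (1.06), Tnip1 (1.01) and Relb (0.95) were among the 8. The list's median was 0.15. Of the 10 inflammatory cytokine genes tested none passed in limma, with 5 higher at an unadjusted p under 0.05, 1 of which had entered only through the libraries with a tail. Tnf was at 8.26 to 10.5 RPKM without a tail, 14.9 and 15.9 in mSTING and 66.8 and 39.3 in zfCTT (1.51 ± 0.44, adjusted p = 0.241). Il12b, a subunit of interleukin-12, could not be tested: it had 0 reads without a tail, 0 and 2 reads in mSTING and 205 and 480 in zfCTT, so the sides overlapped at 0 and its level rested on zfCTT.

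Antigen presentation and early-response genes had smaller differences. Of 22 class I genes tested none passed in limma, 16 were higher at an unadjusted p under 0.05 (5.17% of all genes were), 12 had all 4 libraries with a tail above the rest (4.28% of all genes did), and the median was 0.84; the transporter gene Tap1, at 2.0 to 2.23 RPKM without a tail and 13.6, 4.24, 26.8 and 17.3 with one, differed most (2.16, adjusted p = 0.102). Tap1 shares exonic bases with Psmb9, and near-identical H2 genes may exchange reads. Class II genes gave a pooled median of 0.11 over 9 tested, and none passed in limma. At an unadjusted p under 0.05, 3 were lower (5.29% of all genes were) and 0 higher, and 1 had all 4 below (3.62%). The tails differed in sign for this list: the median was -0.47 for mSTING minus no_transgene and 0.35 for zfCTT minus dCTT. With the controls exchanged it was -0.46 for mSTING minus dCTT and 0.53 for zfCTT minus no_transgene. Of 31 immediate-early genes none passed, 14 were higher and 1 lower at an unadjusted p under 0.05 (5.17% and 5.29% of all genes were), 12 had all 4 above (4.28%), and the median was 0.51, with Csrnp1 (1.82) and Gadd45b (1.26) highest. The 5 interferon-induced GTPase genes tested had a median of 2.45, with none past the threshold and all 5 higher at an unadjusted p under 0.05. Of these, 2 entered only through the libraries with a tail, and 2 of the other 3 had all libraries with a tail above the rest (3.92% of all genes on the same basis). Igtp was highest at 3.0 (adjusted p = 0.113). Among the 35 cell-cycle genes the median was -0.09, among 14 reference genes it was -0.02, and the actin gene Actb differed by 0.23 (adjusted p = 0.515).

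**Figure D3:**
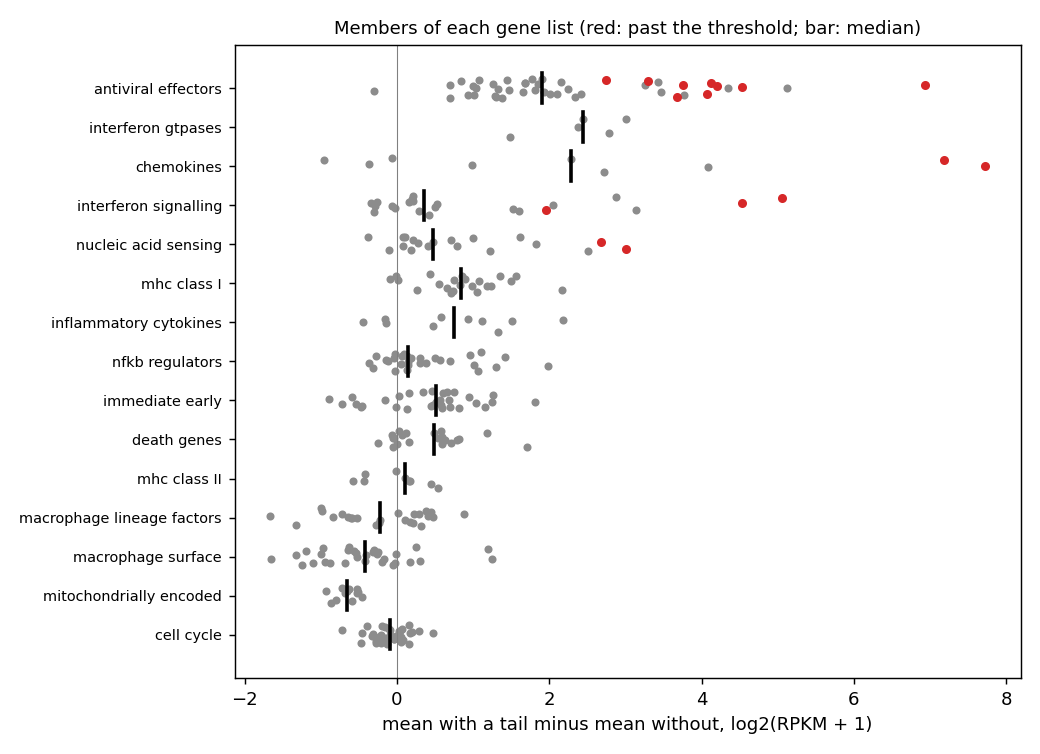
Each point is 1 tested member of a gene list, placed on the x axis by its difference in mean log2(RPKM + 1) between libraries with and without a tail; rows on the y axis are the lists, black bars their medians and red points the genes past the threshold. Antiviral effectors (median 1.90) hold 9 red points, chemokines (2.28) hold 2, and macrophage surface genes (-0.43) and mitochondrially encoded genes (-0.66) lie mostly left of 0 with none.

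Genes for macrophage surface receptors tended to the lower side, without a call. Of 31 tested, 26 had a negative difference, 7 had all 4 libraries with a tail below the rest (3.62% of all genes did), 13 were lower at an unadjusted p under 0.05 (5.29% of all genes were) and the median was -0.43. The 7 were Tmem37 (-1.66), Fcgr3 (-1.32), P2ry6 (-1.20), C5ar2 (-1.10), Itgb5 (-1.0), Itgam (-0.69) and Itgal (-0.64). Fcgr3, a low-affinity receptor for antibody Fc, was at 46.9, 35.7, 37.4 and 33.6 RPKM without a tail, 8.33 and 21.2 in mSTING and 12.7 and 20.0 in zfCTT (adjusted p = 0.106). Itgam, the CD11b integrin chain, was at 8.40 to 16.6 RPKM without a tail and at 5.97 to 6.78 with one, so its libraries with a tail were nearly identical (adjusted p = 0.223). C5ar2, a second receptor for complement C5a, came nearest to the threshold (adjusted p = 0.0853); it shares exonic bases with Gm26473. The Fc receptor genes Fcgr1 (1.20) and Fcgr4 (1.25) pointed up and overlapped between sides. The summed macrophage markers given above were also lower with a tail, but Cd14, Csf1r, Fcgr1, Itgam and Mertk are on both lists. Of the 11 markers tested, 4 had a positive and 7 a negative difference. Their median was -0.36 for mSTING minus no_transgene and 0.18 for zfCTT minus dCTT. With the controls exchanged it was -0.28 for mSTING minus dCTT and 0.07 for zfCTT minus no_transgene. The part of the markers in these values was not tested.

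**Figure D4:**
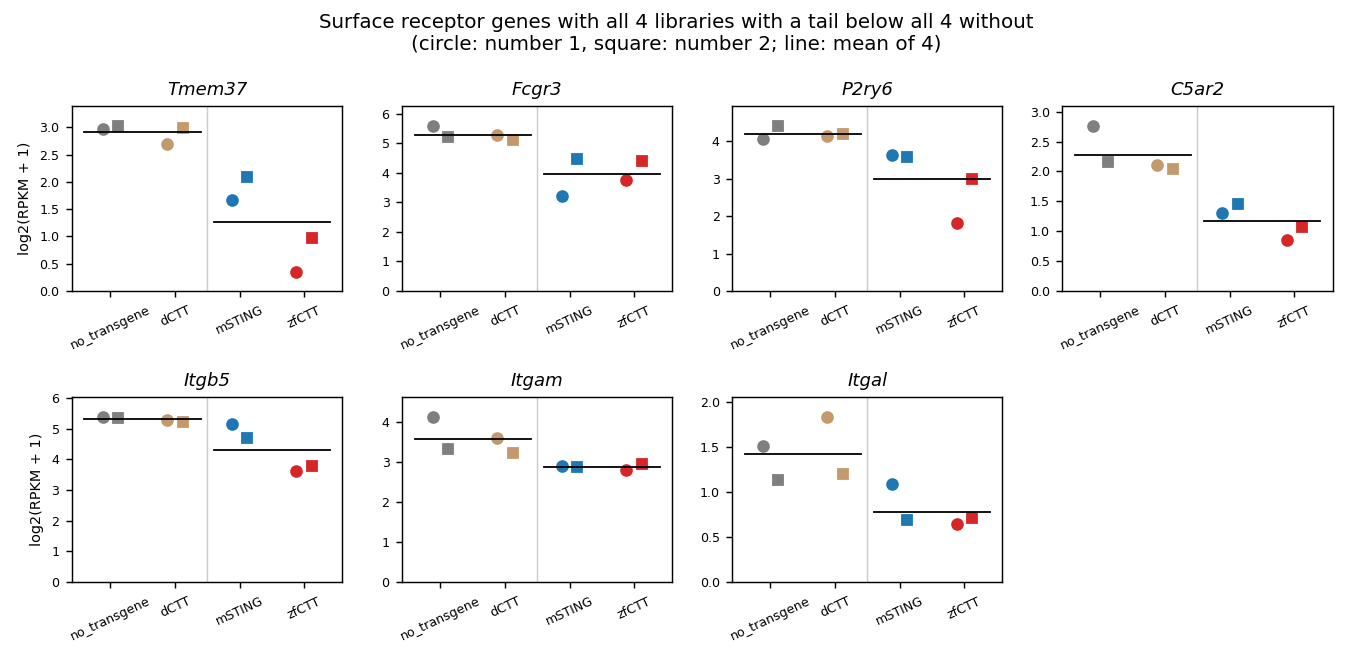
Level of the 7 surface receptor genes whose 4 libraries with a tail were all below the 4 without, as log2(RPKM + 1) on the y axis, by transgene on the x axis; circles are number 1, squares number 2 and lines the mean of 4. Tmem37, P2ry6 and Itgb5 are lowest in zfCTT, whereas Fcgr3 and Itgam are about as low in mSTING.

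Among macrophage lineage factors, 3 of 25 tested had all libraries with a tail above (4.28% of all genes did) and 4 below (3.62%), none passed in limma (5 higher and 5 lower at an unadjusted p under 0.05), and the median was -0.23. Batf entered only through the libraries without a tail, and the median of the other 24 was -0.10. Hes1, a Notch target and repressor, was at 3.61 to 5.47 RPKM without a tail, 1.16 and 1.97 in mSTING and 0.0490 and 0.268 in zfCTT (-1.66 ± 0.32, adjusted p = 0.102). Cebpa, a myeloid differentiation factor, was at 24.9 to 43.6 RPKM without a tail and at 32.8 and 33.8 in mSTING, but at 3.06 and 6.50 in zfCTT, so only zfCTT was low. The pooled difference of -1.33 (adjusted p = 0.541) lay in zfCTT, with mSTING inside the range of the libraries without a tail. The 13 mitochondrially encoded genes had a negative pooled difference throughout (median -0.66, none past the threshold in limma and 1 lower at an unadjusted p under 0.05), and the difference was larger for zfCTT. The median was 0.08 for mSTING minus no_transgene and -1.40 for zfCTT minus dCTT, and with the controls exchanged -0.33 for mSTING minus dCTT and -0.98 for zfCTT minus no_transgene. Mitochondrially encoded reads were 0.0802% and 0.0826% of the total in zfCTT and 0.143% to 0.221% in the other 6 libraries. Cebpa shares exonic bases with Gm45091.

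To see which differences each tail gave in its own libraries, the 8 libraries were divided into pairs of groups that share none: mSTING against no_transgene, and zfCTT against dCTT. Both mSTING libraries were above both of no_transgene for 1928 genes (15.3%) and below for 2107 (16.7%), and zfCTT was above dCTT for 2451 (19.5%) and below for 3171 (25.2%). Of these, 740 (5.88% of genes tested) were above in both, which is 38.4% of the first list and 30.2% of the second, and 684 (5.44%) were below in both, 32.5% and 21.6%. With quantile-normalized values the shared numbers were 884 above and 460 below, so the balance between them depends on scaling. Opposite directions were seen for 331 genes above with mSTING and below with zfCTT and 239 the other way. Across the 12584 genes the paired differences correlated with Pearson's r of 0.334 and Spearman's rho of 0.0790; with the pairs exchanged (mSTING with dCTT, zfCTT with no_transgene) r was 0.544 and rho 0.306. Genes are not independent, and libraries of the same number can deviate together, so these are descriptions.

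For the called genes both differences had the same sign, and their sizes often differed. Irf9 differed by 1.92 with mSTING and 2.01 with zfCTT, and Rxra by -1.27 and -1.46, which is close to equal. Cxcl10 differed by 6.55 and 8.89, Ccl5 by 5.54 and 8.82, and Isg15 by 5.76 and 8.10, each larger with zfCTT. Cxcl10 (6.23 and 9.21), Ccl5 (5.52 and 8.83) and Isg15 (5.88 and 7.98) were also larger with zfCTT when the controls were exchanged, mSTING against dCTT and zfCTT against no_transgene. Ffar4 was at 1.85 with mSTING and 1.16 with zfCTT, but at 1.53 and 1.48 with the controls exchanged, so its gap between tails depended on the control used. Gfi1b was at 1.58 and 1.26, and at 1.56 and 1.29 exchanged. The paired sizes themselves were not tested against each other. By list, antiviral effectors had medians of 1.33 with mSTING and 2.49 with zfCTT (1.30 and 2.57 with the controls exchanged), and chemokines 0.95 and 3.61 (1.22 and 3.35). NF-κB regulators had 0.23 and 0.31 (0.09 and 0.27). Macrophage surface genes had -0.45 and -0.38 (-0.31 and -0.65), so the order of the tails turned with the control for that list.

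**Figure D5:**
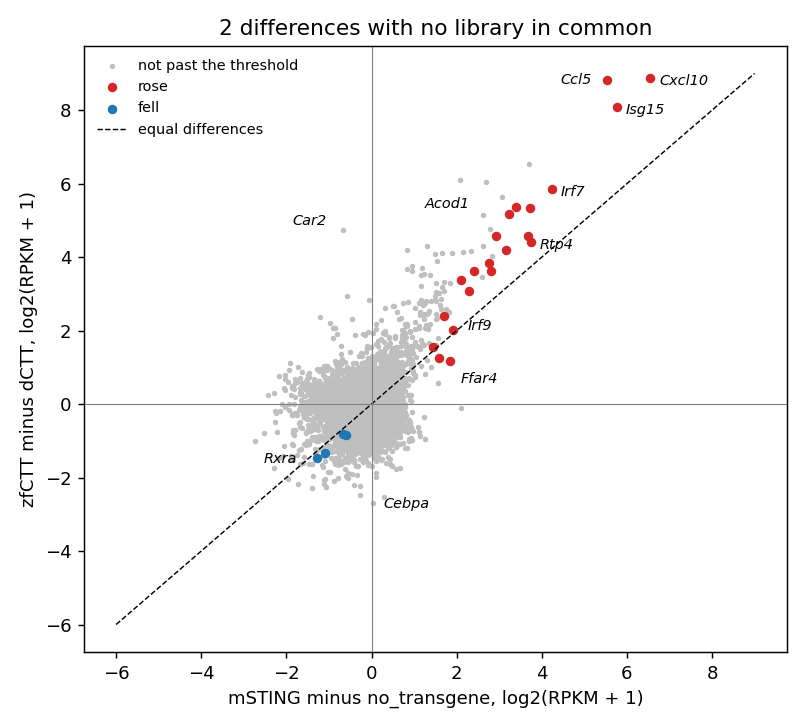
Each point is 1 of the 12584 genes, with mSTING minus no_transgene on the x axis and zfCTT minus dCTT on the y axis, both as differences of mean log2(RPKM + 1); red and blue points are the 21 rises and 4 falls of the pooled comparison and the dashed line marks equal differences. Cxcl10, Ccl5 and Isg15 lie above the line, Irf9 on it and Ffar4 below it, while Car2 (-0.66 and 4.73) and Cebpa (0.02 and -2.69) lie far from 0 mainly on the y axis.

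Pooling treats the tails as one condition, so the difference between zfCTT and mSTING was tested directly, in a fit with a mean per transgene. Only Acod1 and Car2 passed, both higher with zfCTT (2 of 12584 genes, 0.0159%), and none was lower (0 genes, 0.0%), while 634 genes were higher and 701 lower at an unadjusted p under 0.05. Acod1, which makes the antimicrobial metabolite itaconate, was at 0.192 to 0.486 RPKM without a tail, 7.48 and 5.47 in mSTING and 54.3 and 43.5 in zfCTT. Acod1 entered the test only through the libraries with a tail and so was separated by the filter. Its pooled difference was 3.87 ± 0.67 (adjusted p = 0.0805), and zfCTT exceeded mSTING by 2.74 (adjusted p = 0.0250). Car2, carbonic anhydrase 2, was at 5.24 and 7.76 RPKM in mSTING, against 6.71 to 13.3 without a tail and 313 and 175 in zfCTT (zfCTT minus mSTING 4.99, adjusted p = 0.0250), so mSTING did not stand apart from the libraries without a tail. Neither call remained when any 1 of the 4 libraries was left out. For Cxcl10 the difference between tails was 2.66 (adjusted p = 0.413), for Ccl5 3.30 (0.206), for Irf9 0.14 (0.784) and for Ffar4 -0.37 (0.470), which does not show that the tails act alike on these genes.

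The fit with a mean per transgene also gives the pooled contrast with the difference between transgenes taken out of the error. It called 77 rises (0.612%) and 17 falls (0.135%), among them all 25 genes named above. Leaving out both libraries of a transgene moved the count further: without mSTING 427 genes rose and 168 fell, without zfCTT 14 rose and 4 fell, and without either no_transgene or dCTT no gene passed (608 and 654 genes had an unadjusted p under 0.05). All 25 genes kept their direction in each of these fits.

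Genes that crossed the 1 RPKM line completely were listed as well. There were 48 with at least 1 RPKM in all 4 libraries with a tail and less than 1 in all 4 without, and 29 with the reverse. A gene can enter the test through one side alone only by such a pattern, so these numbers are a description. The 48 include Oasl1 (0 to 0.0265 RPKM without a tail, 20.4 and 7.19 in mSTING, 152 and 56.4 in zfCTT), Socs1 (0.186 to 0.387, then 9.44, 2.06, 18.2 and 26.5), a feedback inhibitor of cytokine receptors, and Csf1 (0.0578 to 0.249, then 2.22, 1.04, 12.7 and 7.17), the macrophage growth factor. The 29 include Rxra, Mlxipl and Hrh1, the receptor gene Notch1 (1.56 to 2.53 RPKM without a tail and 0.340 to 0.796 with one, adjusted p = 0.0624) and Pdk2, a pyruvate dehydrogenase kinase gene (1.01 to 1.88 and 0.273 to 0.459, adjusted p = 0.0540). The 5 examples other than called genes were chosen after their values were seen. Oasl1 shares exonic bases with Gm13822 and Notch1 with 0610009E02Rik and Gm13568.

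The motif letters were counted over all promoter windows of 300 bases (250 before the start and 50 after). The interferon-stimulated response element letters were present in 3.44% of 32851 windows and in 3.79% of the 7358 tested genes with a window. Among rises they were found in 4 of the 13 with a window (30.8%): Cxcl10, Isg15, Oas1g and Oas3, the sequences printed above. Among the falls they were in 1 of 3, Hrh1. They were present in 12.2% of the 393 genes with a window whose 4 libraries with a tail were all above the rest and in 4.39% of the 319 with all 4 below, and in 16 of 35 antiviral effectors (45.7%). The NF-κB letters were in 0.411% of all windows, in none of the 13 rises and in 3 of 23 NF-κB regulators (13.0%), Nfkbia among them. A match is a description of these letters in this window, not a site, and a missing match says nothing of the factor.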

How the data were processed

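Single-end libraries of polyadenylated RNA were made from 8 samples, 2 per transgene label. The authors deposited RPKM per gene; per the submitters' processing notes, the tools included cutadapt 1.16 and HISAT2 2.1.0, with mouse builds GRCm38 and mm10. Not given in the sources used here: the read counter, its annotation, the strand setting. Symbols, coordinates and exon lengths came from GENCODE for GRCm38 (53620 of 53715 genes matched; 95 kept their identifiers). Depth was recovered from RPKM times exon length, which gave whole reads within 0.05 read for 95.0% to 95.6% of nonzero values. Such reads and the floor of 3 reads cover counting error only. Genes sharing exons, or near-identical families, are uncertain.

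Differences were tested on log2(RPKM + 1) by limma 3.58.1 (R 4.3.3), which understates the change of low genes, with 2 means (with and without a tail), an intensity trend, two-sided tests and Benjamini-Hochberg adjustment over all 12584 genes at 0.05; scripts were tested on simulated data. Because RPKM are not counts, a count-based fit (voom on recovered reads) was only an alternative. Named genes were the 14 largest rises and 12 largest falls past the threshold with non-overlapping libraries and a mean RPKM of at least 1, excluding unnamed models; up to 3 called members of each list; and 16 fixed genes, 1 of which is not reported here. The members and lists were chosen with earlier results of these data known. Alternatives changed the pseudocount, filter, scaling, fit and libraries. Libraries of 1 group differed beyond counting error in 74.5% to 80.3% of genes, so none was a copy. Between groups, number 2 libraries differed from each other in 51.0% to 72.6% of genes, less than libraries of 1 group did. Number 1 libraries differed from each other in 72.0% to 82.3%. What the numbers share was not tested.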

Additional observations from a re-analysis of the deposited data

Results flagged for a closer look

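In 7 of the 74 sets of 4 libraries checked for 37 genes (the 31 that the rule named and the 6 other called genes), 1 library lay far from the other 3, by a rule that chance alone meets in about 1 set of every 20. Among libraries without a tail, no_transgene 2 was highest for Isg15 (0.810 RPKM, next 0.509), dCTT 1 was highest for Usp18 (0.219, next 0.102) and Irf9 (1.16, next 0.983), and dCTT 2 was the only one with a read of Cmpk2 (0.00140 RPKM). No_transgene 1 was lowest for Oas3 (0.571, next 0.888) and Trex1 (18.4, next 23.4). With a tail, mSTING 2 was lowest for Rtp4 (7.35 RPKM, next 20.3). Acod1 and Car2 differed between the tails by 2.74 and 4.99 on the log2(RPKM + 1) scale, zfCTT minus mSTING, each at a limma adjusted p of 0.0250. Explanations for these were not tested.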

How the results depend on the processing

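All 25 called genes kept their direction under every setting run in which they were tested, while the number of calls moved widely (rises, then falls; 21 and 4 as reported). A pseudocount of 0.1 gave 39 rises, no filter on low values 2, a minimum mean of 5 RPKM 0 falls, equal library medians 2 falls, voom on recovered reads 4 and 1, and a mean per transgene 77 and 17. The minimum mean of 5 RPKM left the 4 reported falls untested. Leaving out 1 library gave 2 to 232 rises and 1 to 70 falls. Leaving out both no_transgene or both dCTT libraries gave 0 and 0 (608 and 654 genes had an unadjusted limma p under 0.05), and leaving out mSTING gave 427 and 168. Of settings chosen after seeing the data, a mean per transgene with the replicate block gave 155 and 77, and leaving out number 1 of no_transgene and dCTT gave 0 rises and 1 fall.

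The replicate number as a block gave 24 rises and 17 falls, and Dhx58 no longer passed (adjusted p = 0.0501). The labels do not say what a number shares, and the numbers were not taken to pair the samples because not every pair of groups exceeded 0.1: deviations of same-numbered libraries correlated at 0.0248 to 0.763 over the 6 pairs of groups, with values under 0.1 for mSTING with either group without a tail. For zfCTT against mSTING, with 2 genes higher and 0 lower, the block gave 13 and 2, a pseudocount of 0.1 gave 0 higher, and leaving out 1 library gave 0 to 0 higher. Tmem173 turned to -0.17 without the no_transgene libraries. Gapdh, at 0.02, turned to -0.0049 without no_transgene 1, -0.0142 without dCTT 2, -0.0310 without mSTING 1 (range with 1 library left out -0.0310 to 0.0972), -0.0357 without the no_transgene libraries and -0.0175 without the mSTING libraries. The cause was not tested. Depth limits what 0 reads can show: for Ifnb1 the level of 3 reads averaged 0.0697 RPKM over the libraries without a tail.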

Other observations

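Several gene groups outside the interferon response had small differences. Of 21 cell-death genes tested none passed in limma (7 were higher at an unadjusted p under 0.05), 5 had all 4 libraries with a tail above the rest (4.28% of all genes did), and the median was 0.48 on the log2(RPKM + 1) scale. Cflar entered the test only through the libraries with a tail, and the median of the other 20 was 0.32. Daxx, an apoptosis-linked chaperone that is also interferon-inducible, was highest at 1.71 (adjusted p = 0.102). Replication-dependent histone genes were slightly higher for 57 of 62 tested, with none separated between the sides; their median was 0.37 for mSTING minus no_transgene and -0.11 for zfCTT minus dCTT, but 0.13 for mSTING minus dCTT and 0.12 for zfCTT minus no_transgene. Of 22 cholesterol synthesis genes 16 were positive, with a median of 0.18, and of 24 lysosome and autophagy genes 18 were negative, with a median of -0.12. The cholesterol synthesis median was -0.0059 for mSTING minus no_transgene and 0.32 for zfCTT minus dCTT. With the controls exchanged it was -0.09 for mSTING minus dCTT and 0.44 for zfCTT minus no_transgene, so the positive difference lay in zfCTT. Medians were 0.04 for 27 glycolysis and citrate cycle genes, 0.02 for 11 p53 targets and -0.10 for 20 stress-response genes.

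The co-stimulatory genes showed both directions. Cd40, a receptor for T-cell help, was at 0.833 to 1.24 RPKM without a tail, 5.66 and 1.33 in mSTING and 38.2 and 17.3 in zfCTT (2.36, limma adjusted p = 0.301). Icam1, an adhesion ligand, differed by 1.51 (adjusted p = 0.234) and shares exonic bases with Gm47079. Vsir, an inhibitory checkpoint gene, was at 7.30 to 11.2 RPKM without a tail, 5.49 and 4.37 in mSTING and 1.61 and 2.32 in zfCTT (-1.23, adjusted p = 0.15). All 3 were separated between the sides and none passed the threshold. Other genes with all 4 libraries with a tail below the rest, named after their values were seen, were Gas6, a ligand of the TAM receptors (-2.0, adjusted p = 0.269), which shares exonic bases with Tmem255b, Fcrls (-1.84, adjusted p = 0.169) and Tgfbi, a matrix protein (-1.59, adjusted p = 0.15). None of the 3 passed the threshold.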
